A study of Mus musculus with 12 samples.

Results

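The genes described here copy DNA in S phase, the part of the cell cycle in which the genome is duplicated. They are 51 genes named by symbol for origin licensing, the replisome, nucleotide synthesis, replication-coupled repair and chromatin assembly, with the cyclins and factors that start S phase. In the array annotation 50 of the 51 had a probe set with 1 gene symbol, and Chaf1a was not analysed here. The 50 genes had 113 such probe sets, of which 91 passed a filter on low signal, and 49 genes could be tested among 11430 genes in all. The gene left out by the filter was E2f2.

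RNA was measured on 12 single-colour Affymetrix arrays of bone marrow-derived mast cells from C57BL/6 mice. Mast cells are effector cells of allergy that carry the IgE receptor and KIT, the receptor for stem cell factor (SCF). In the IL3 group, 6 samples came from cells kept for 4 to 6 weeks with interleukin 3 at 30 ng/ml. In the IL3+SCF group, 6 samples came from cells kept for 4 to 6 weeks in the same dose of IL3 plus SCF. The SCF dose is given as 100 ng/ml unless another dose was indicated. Culture age is given only as this range, so whether it matched between the groups is not known. Both groups therefore had IL3 throughout, no cells grown without IL3 are analysed here, and the labels give a purity above 99% for both. The comparison asked how growth with SCF altered the mast cell transcriptome. Whether replicates were separate cultures or separate animals is not stated in the labels. The p-values thus reflect only the variation among these samples, part or all of which may be technical.

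DNA replication starts at origins, where ORC, CDC6 and CDT1 load the ring-shaped MCM helicase before S phase. Kinases then recruit CDC45 and the GINS complex to switch the helicase on, primase and the DNA polymerases copy the strands, and the sliding clamp PCNA holds the polymerases on DNA. Many of the genes are known targets of the E2F transcription factors and are transcribed mainly around the start of S phase, so their transcripts are more abundant in dividing cultures. Bone marrow-derived mast cells divide in IL3, and SCF is a growth and survival factor for them.

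With SCF, most of the replication genes were lower. Of the 49 tested, 39 fell, 1 rose and 9 did not pass (limma, Benjamini-Hochberg adjusted p below 0.05). Among all genes tested 16.6% fell and 18.9% rose, against 79.6% of the replication genes that fell. The median log2 fold change, IL3+SCF over IL3, was -0.54 for the replication genes, with a range from -2.05 to 0.65, and 0.02 for all genes. Differences of at least 2-fold were found for 12 of the fallen genes, beside 2.94% of all genes. The largest were in Rrm2, Tk1 and Uhrf1, and the gene that rose was Cdc6. Every IL3 array lay above every IL3+SCF array for 31 of the 49 genes, beside 9.12% of all genes, and the reverse held for Cdc6 alone, beside 9.97%. After median centring of the arrays the 31 became 23. No tested gene of the group was dim, meaning at or below its array's 40th percentile, on all 6 arrays of either culture.

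**Figure D1:**
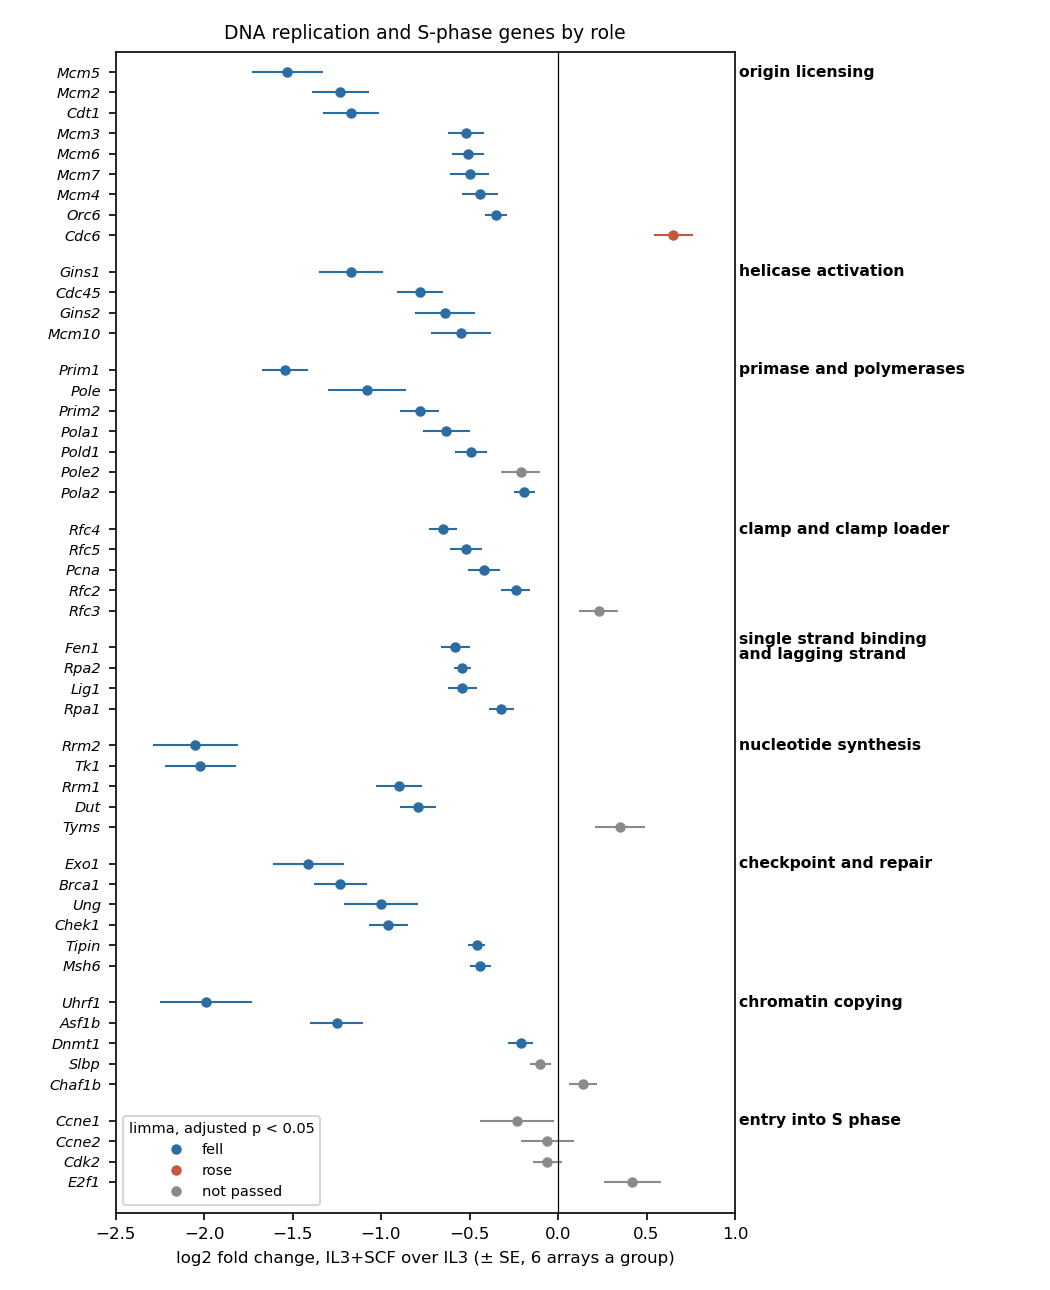
Log2 fold change of the 49 tested genes, IL3+SCF over IL3, on the log2(signal + 16) scale, grouped by role. Points are limma estimates from 6 arrays a group with the standard error as a bar; 39 points are in the colour for fallen genes, the single risen gene is Cdc6 at 0.65, and all 4 genes of entry into S phase are grey (not passed).

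All log2 fold changes here are on the scale log2(signal + 16), which understates the change of dim genes, and signals themselves are linear. Each gene is given by its brightest probe set unless stated otherwise, and levels of different genes are not compared. A sum over marker genes mixes probe sets and is set only against the same sum on other arrays. Because RNA of whole cultures was measured, fewer cells in S phase and less transcript in each cell cannot be told apart. Precision is limited by having 6 arrays a group.

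The mast cell identity of the cultures was checked with 10 markers, among them Kit, Fcer1a, Cpa3 and Gata2. None of the 10 was dim on any array and none passed the test (limma). Only Hdc, the histamine-making enzyme, had an unadjusted p below 0.05. Hdc was at 4550 ± 776 with IL3 and 7337 ± 2727 with SCF (SD, n = 6), which is 0.62 ± 0.23 (SE, adjusted p = 0.0543). The summed signal of the 10 ran from 277663 to 321504 on the IL3 arrays and from 283085 to 321185 on the IL3+SCF arrays. Signals of 9 neutrophil markers summed to between 302 and 6968 on the IL3 arrays, with IL3 replicates 3 (5531) and 6 (6968) highest, and to between 210 and 335 on the IL3+SCF arrays, where 8 of the 9 were dim on all 6. Among them S100a9, a neutrophil calcium-binding protein, ran from 51.3 to 3475 with IL3 and had a mean of 24.6 with SCF. Monocyte and macrophage markers, 7 of 8 with a probe set, summed to between 8124 and 11968 with IL3 and between 3015 and 3345 with SCF. Cx3cr1, a chemokine receptor, was at 6563 ± 1634 with IL3 and 417 ± 78.1 with SCF (SD, n = 6) and fell, as did Lyz2, a lysozyme gene, from 2188 ± 479 to 709 ± 130 (-1.59 ± 0.14, SE, adjusted p = 4.98e-06). Cd68, a lysosomal membrane protein, rose by 1.28 ± 0.11 (adjusted p = 2.82e-06), and Ccr2, a chemokine receptor (-0.23 ± 0.23), and Adgre1, the F4/80 antigen (0.04 ± 0.21), did not pass. Csf1r, the macrophage growth factor receptor, was dim on 5 of 6 arrays in each group, and Cd14, the lipopolysaccharide co-receptor, on all 12. Erythroid markers, 5 of 7 with a probe set, summed to between 210 and 311 with IL3 and between 220 and 343 with SCF. Of 2 erythroid markers tested, 1 did not pass and Epor, the erythropoietin receptor, rose with overlap. Epor was at 124 ± 13.7 with IL3 and 156 ± 17.5 with SCF (0.30 ± 0.08, SE, adjusted p = 0.0131). Progenitor markers, with Cd34, a stem cell surface protein (12368 ± 939 and 11481 ± 810), summed to between 24252 and 28727 and between 23874 and 26359. Of 4 progenitor markers tested, 3 did not pass, Cd34 among them, and Hlf fell with overlap. Hlf was at 241 ± 65.3 with IL3 and 144 ± 43.1 with SCF (-0.70 ± 0.22, SE, adjusted p = 0.0291). Basophil markers, 4 of 5 with a probe set, summed to between 23096 and 28487 and between 24443 and 26467. Of these Cd200r3, an immune receptor, rose (15944 ± 655 and 19710 ± 764), Gda, a guanine deaminase, fell without overlap (7187 ± 690 and 5296 ± 341, adjusted p = 0.000378), and Mcpt8, a basophil protease, did not pass and ran from 437 to 4782 with IL3 and from 577 to 954 with SCF. The part of such cells in the lower replication signals was not tested. Without IL3 replicates 3 and 6, highest in neutrophil markers, 35 replication genes fell, with a median log2 fold change of -0.53 over those tested. Monocyte and macrophage sums were higher on every IL3 array than on any IL3+SCF array, so that fit does not address those cells.

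Because E2F sites are known from the promoters of many replication genes, RefSeq promoter windows (GRCm38.p6, 250 bases before to 50 after each annotated start) were searched. Of the 51 genes 42 had a window, with 50 windows in all. The E2F letters searched were TTTCCCGC, TTTCGCGC, TTTGCCGC and TTTGGCGC on both strands, and a window counted once however many matches overlapped in it. They were found in 16 of the 50 windows (32.0%), in 2.26% of all 32851 windows and in 3.93% of the windows of tested genes. By call, 11 of 38 windows of fallen genes held them (28.9%), as did 4 of 9 windows of genes that rose or did not pass (44.4%). CCAAT, the NF-Y letters, stood in 58.0% of the replication windows and 37.4% of all windows. The CHR letters of mitotic genes, TTTGAA or TTCGAA, stood in 8 of the 50 replication windows, 19.2% of all windows and 78.4% of 37 windows of mitosis genes. These are matches of letters and not shown binding sites. The stretches of 160 bases that end just before the start are printed for the 6 genes with 1 listed window and an E2F match wholly before the start. They are shown because they hold the letters shared by genes with different calls, and capitals mark the E2F letters on either strand, reading 5′ to 3′ in the direction of the gene.
Mcm5 (chr8:75109349-75109508, plus strand): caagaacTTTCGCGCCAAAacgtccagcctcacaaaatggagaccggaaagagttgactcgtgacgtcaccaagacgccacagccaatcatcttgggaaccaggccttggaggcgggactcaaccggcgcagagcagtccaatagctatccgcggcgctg
Mcm6 (chr1:128359706-128359865, minus strand): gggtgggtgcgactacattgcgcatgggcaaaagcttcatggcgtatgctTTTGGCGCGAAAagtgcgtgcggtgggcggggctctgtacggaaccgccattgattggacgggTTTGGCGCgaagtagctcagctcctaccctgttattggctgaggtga
Pola1 (chrX:93632156-93632315, minus strand): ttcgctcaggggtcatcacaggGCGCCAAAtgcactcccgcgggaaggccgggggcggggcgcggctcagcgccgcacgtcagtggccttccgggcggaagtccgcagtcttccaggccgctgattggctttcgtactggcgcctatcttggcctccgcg
Cdc6 (chr11:98907991-98908150, plus strand): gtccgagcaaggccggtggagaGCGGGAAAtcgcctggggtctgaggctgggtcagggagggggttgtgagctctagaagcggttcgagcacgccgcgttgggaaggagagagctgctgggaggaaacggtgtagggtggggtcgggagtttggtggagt
Rfc3 (chr5:151651209-151651368, minus strand): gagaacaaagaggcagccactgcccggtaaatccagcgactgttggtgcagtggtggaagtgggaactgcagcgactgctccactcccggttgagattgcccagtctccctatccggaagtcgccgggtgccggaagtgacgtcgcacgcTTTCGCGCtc
Cdk2 (chr10:128705052-128705211, minus strand): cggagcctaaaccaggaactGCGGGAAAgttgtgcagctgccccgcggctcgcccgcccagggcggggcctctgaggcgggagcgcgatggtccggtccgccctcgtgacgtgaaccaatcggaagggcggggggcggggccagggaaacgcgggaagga
The first 3 belong to genes that fell (Mcm5, Mcm6 and Pola1), the next to the gene that rose, and the last 2 to genes that did not pass. Mcm5 held 2 overlapping matches, whose first bases lay 153 and 149 bases before the start, and Mcm6 held 3, between 110 and 47 bases before it. In Rfc3 the match began 10 bases before the start.

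Origin licensing was represented by 9 genes, of which 8 fell and 1 rose, with a median log2 fold change of -0.51. The MCM2 to MCM7 proteins form the hexameric helicase ring that is loaded at origins, and all 6 of their genes fell, by unequal amounts. Mcm5, a subunit of the ring, had signals from 601 to 888 with IL3 (median 783) and from 153 to 463 with SCF (median 267). The IL3+SCF array closest to the IL3 arrays was replicate 1, and the groups did not overlap. The fold change of Mcm5 was -1.53 ± 0.20 (SE, adjusted p = 9.43e-05). Mcm2, another ring subunit, ran from 690 to 1323 with IL3 (median 936) and from 308 to 562 with SCF (median 386). Again IL3+SCF replicate 1 was the highest of its group and stayed below all IL3 arrays, and Mcm2 changed by -1.23 ± 0.16 (adjusted p = 9.08e-05). A dimmer probe set of Mcm2 was at -0.86 ± 0.15 without overlap. The other 4 ring genes lay close together: Mcm3 at -0.52 ± 0.10, Mcm6 at -0.51 ± 0.09, Mcm7 at -0.50 ± 0.11 and Mcm4 at -0.44 ± 0.10. Their probe sets told the same, since all 5 of Mcm3 fell by 0.42 to 0.60 and all 4 of Mcm7 by 0.44 to 0.50. Cdt1, the factor that brings the ring to origins, fell by 1.17 ± 0.16 on the log2 scale (adjusted p = 0.000143), from 791 ± 111 to 350 ± 101 (SD, n = 6). A dimmer probe set of Cdt1 fell less, at -0.63 ± 0.16 with overlap (adjusted p = 0.00997 among probe sets). Orc6, the smallest subunit of the origin recognition complex, fell by 0.35 ± 0.06.

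Cdc6, the ATPase that works with ORC and CDT1 in loading the ring, was the gene that rose. Its signals ran from 310 to 467 with IL3 (median 358) and from 503 to 696 with SCF (median 576). All IL3+SCF arrays were above all IL3 arrays, and Cdc6 rose by 0.65 ± 0.11 (SE, adjusted p = 0.000615). It had 1 probe set, and the rise was called under all 25 alternative settings tried. CDC6 and CDT1 act in the same loading step, and their transcripts differed in direction in these arrays.

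Helicase activation had 4 genes, all of which fell, with a median of -0.71. Gins1, a subunit of the GINS complex that helps switch the helicase on, ran from 330 to 481 with IL3 (median 380) and from 127 to 300 with SCF (median 152). The high IL3+SCF value was replicate 1, the other 5 arrays were at or below 172, and the groups did not overlap. Gins1 changed by -1.17 ± 0.18 (adjusted p = 0.000286). Cdc45, the other partner of the active helicase, ran from 131 to 230 with IL3 (median 194) and from 83.3 to 120 with SCF (median 106). The lowest IL3 array, replicate 4, was still above all IL3+SCF arrays, and the change was -0.78 ± 0.13 (adjusted p = 0.000400). A dimmer probe set of Cdc45 showed no such difference, at -0.05 ± 0.13 (adjusted p = 0.823). Gins2, a second GINS subunit (-0.64 ± 0.17), and Mcm10, which helps the helicase start (-0.55 ± 0.17), overlapped between the groups. A dimmer probe set of Mcm10 did not pass, at -0.30 ± 0.19 (adjusted p = 0.263 among probe sets). Without IL3 replicates 3 and 6, a fit on fewer arrays, Gins2 was at -0.61 (adjusted p = 0.0545) and Mcm10 at -0.53 (adjusted p = 0.0755), so the fold changes stayed about as large and neither passed.

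Primase and the polymerases were represented by 7 genes, of which 6 fell and Pole2 did not pass, with a median of -0.63. Prim1, the catalytic subunit of primase that makes the RNA primers, ran from 1154 to 1601 with IL3 (median 1298) and from 328 to 599 with SCF (median 467). The gap between the groups was wider than the spread inside either, and Prim1 changed by -1.54 ± 0.13 (adjusted p = 3.5e-06). Its dimmer probe set gave -1.51. Pole, the catalytic subunit of the leading strand polymerase, ran from 128 to 275 with IL3 (median 201) and from 51.4 to 144 with SCF (median 91.3). The IL3 array with the lowest value (replicate 4) lay below IL3+SCF replicate 1, and 2 IL3+SCF arrays were dim. Pole changed by -1.08 ± 0.22 (adjusted p = 0.00252). Prim2, the regulatory primase subunit, fell by 0.78 ± 0.11, and Pola1, the catalytic subunit of polymerase alpha, by 0.63 ± 0.13. Pold1, the catalytic subunit of the lagging strand polymerase delta, fell by 0.49 ± 0.09. A dimmer probe set of Pold1 did not pass, at -0.32 ± 0.13 with overlap (adjusted p = 0.0767 among probe sets). The accessory subunits Pola2 and Pole2 had the smallest differences of the 7. Pola2 fell by 0.19 ± 0.06 (adjusted p = 0.0299), and Pole2 was at -0.21 ± 0.11 (adjusted p = 0.164). The call of Pola2 was lost under 11 of 25 alternatives, with fold changes between -0.23 and -0.14 over all of them. Leaving out IL3+SCF replicate 1, 2, 3 or 5 was enough to lose it (adjusted p from 0.0504 to 0.0623).

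The clamp and its loader had 5 genes, of which 4 fell, with a median of -0.42. Pcna, the sliding clamp, had signals from 10450 to 14527 with IL3 (median 13168) and from 8389 to 10972 with SCF (median 9622). The overlap came from IL3 replicate 1, the lowest of its group, and the change was -0.42 ± 0.09 (adjusted p = 0.00234). The replication factor C complex opens the clamp and places it on DNA, and its subunits differed among themselves. Rfc4 ran from 1050 to 1385 with IL3 (median 1112) and from 664 to 827 with SCF (median 739). Rfc4 did not overlap between the groups and changed by -0.65 ± 0.08 (adjusted p = 6.27e-05). Rfc5 ran from 604 to 769 with IL3 (median 689) and from 427 to 584 with SCF (median 454). Here IL3+SCF replicate 1 lay just under the lowest IL3 array, and the change of Rfc5 was -0.52 ± 0.09 (adjusted p = 0.000581). Rfc2 fell by 0.24 ± 0.08 (adjusted p = 0.0337), with overlap and a call lost under 10 of 25 alternatives, and Rfc3 was at 0.23 ± 0.11 (adjusted p = 0.117). The call of Rfc2 was lost without any 1 of IL3 replicates 2, 5 and 6 or IL3+SCF replicates 5 and 6 (adjusted p from 0.0615 to 0.0725). Its dimmer probe sets, at -0.17 ± 0.07 and -0.12 ± 0.09, did not pass (adjusted p = 0.0844 and 0.321 among probe sets).

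All 4 genes for single strand binding and the lagging strand fell and none overlapped between the groups, with a median of -0.54. Fen1, the nuclease that trims Okazaki fragment flaps, ran from 5875 to 7504 with IL3 (median 6329) and from 3920 to 5093 with SCF (median 4268). The change of Fen1 was -0.58 ± 0.08 (adjusted p = 0.000131). Rpa2, a subunit of the protein that covers single-stranded DNA, ran from 1256 to 1439 with IL3 (median 1373) and from 887 to 984 with SCF (median 928). The arrays of each group lay close together for Rpa2, whose standard error was 0.05 for a change of -0.54 (adjusted p = 5.02e-06). Lig1, the ligase that seals Okazaki fragments, fell by 0.54 ± 0.08, and Rpa1, the large subunit of the same binding protein as RPA2, by 0.32 ± 0.07.

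Nucleotide synthesis held the 2 largest differences of the replication genes. Of 5 genes 4 fell, with a median of -0.90. Rrm2, the small subunit of ribonucleotide reductase that makes deoxynucleotides in S phase, ran from 5539 to 8900 with IL3 (median 6604) and from 934 to 2910 with SCF (median 1552). The highest IL3+SCF arrays were replicates 1 and 3, and both stayed far below the IL3 group. Rrm2 changed by -2.05 ± 0.24 (adjusted p = 4.47e-05), which is 4.13-fold lower with SCF, and its 3 probe sets lay between -2.05 and -1.55. The probe set at -1.55 was dim on all 6 IL3+SCF arrays, so it passed the filter through the IL3 arrays alone. Another, at -1.58, was dim on 2 IL3+SCF arrays. Tk1, the thymidine salvage kinase, ran from 241 to 601 with IL3 (median 367) and from 46.8 to 108 with SCF (median 83.7). Of the IL3+SCF arrays 2 were dim for Tk1, the groups did not overlap, and the change was -2.02 ± 0.20 (adjusted p = 1.18e-05). Rrm1, the large subunit of ribonucleotide reductase, fell by 0.90 ± 0.13, and Dut, which removes dUTP from the nucleotide pool, by 0.79 ± 0.10. A dimmer probe set of Dut was at -0.17 ± 0.12 (adjusted p = 0.318). Tyms, the enzyme that makes thymidylate anew, did not pass, at 0.35 ± 0.14 (adjusted p = 0.0769), with signals of 186 ± 28.6 with IL3 and 244 ± 59.6 with SCF (SD, n = 6). Its 3 kept probe sets lay between -0.16 and 0.35, and Tyms was called risen when IL3+SCF replicate 1 was left out (0.43, adjusted p = 0.0251).

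**Figure D2:**
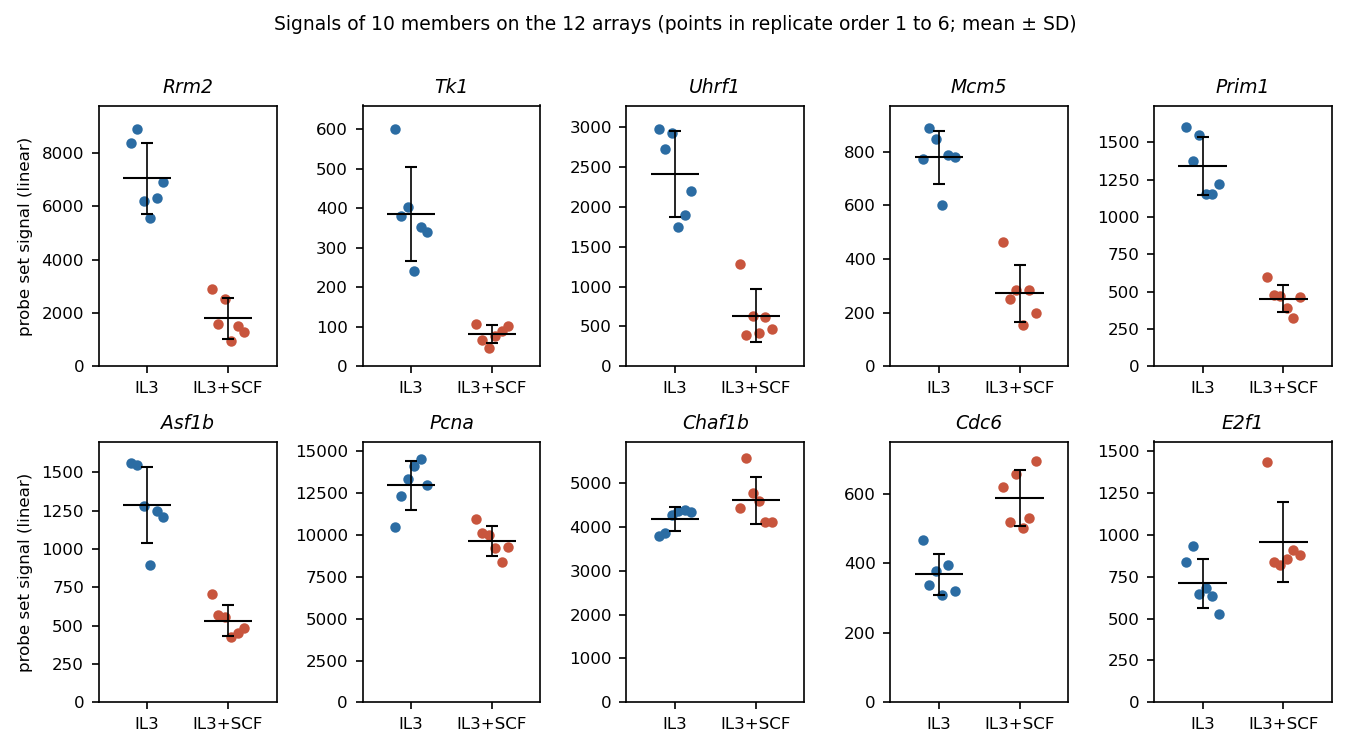
Linear probe set signals of 10 genes on the 12 arrays (vertical axes start at 0), with points in replicate order and the mean ± SD of 6 arrays as a bar. Rrm2, Tk1, Uhrf1, Mcm5, Prim1 and Asf1b do not overlap between the cultures, Cdc6 is higher on all IL3+SCF arrays, and Pcna, Chaf1b and E2f1 overlap.

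Checkpoint and repair genes numbered 6, and all 6 fell, with a median of -0.98. Exo1, an exonuclease of mismatch repair and end resection, ran from 144 to 229 with IL3 (median 177) and from 28.2 to 91.6 with SCF (median 59.0). It was dim on 4 of 6 IL3+SCF arrays and on none of the IL3 arrays, and it changed by -1.41 ± 0.20 (adjusted p = 0.000166). Brca1, which acts in homologous recombination and at stalled forks, ran from 181 to 373 with IL3 (median 297) and from 94.1 to 134 with SCF (median 110). The lowest IL3 array, replicate 4, exceeded the highest IL3+SCF array, and Brca1 changed by -1.23 ± 0.15 (adjusted p = 4.58e-05). Chek1, the kinase that slows the cycle when forks stall, fell by 0.96 ± 0.11, and the 3 of its 5 probe sets that were kept fell by 0.45 or more. Ung, which removes uracil from DNA, fell by 1.00 ± 0.21, with overlap from IL3+SCF replicate 1 at 208 and 2 IL3+SCF arrays dim. Tipin, which protects the fork with its partner Timeless, and Msh6, a mismatch recognition protein, fell by 0.46 ± 0.05 and 0.44 ± 0.06 without overlap.

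Chromatin copying had 6 genes, of which 5 could be tested: 3 fell and 2 did not pass, with a median of -0.21. Uhrf1, which reads hemimethylated DNA behind the fork, ran from 1740 to 2979 with IL3 (median 2460) and from 391 to 1289 with SCF (median 541). IL3+SCF replicate 1 stood at 1289 and the other 5 arrays between 391 and 637, all below the IL3 arrays. Uhrf1 changed by -1.99 ± 0.26 (adjusted p = 8.36e-05), and its dimmer probe set, which was dim on 4 IL3+SCF arrays, by -1.24. Asf1b, a histone H3-H4 chaperone linked to dividing cells, ran from 895 to 1564 with IL3 (median 1265) and from 424 to 706 with SCF (median 524). The groups did not overlap for Asf1b, and the change was -1.25 ± 0.15 (adjusted p = 4.03e-05). Dnmt1, the methyltransferase that UHRF1 brings to new DNA, was at 12611 ± 778 with IL3 and 10937 ± 981 with SCF (SD, n = 6). Its fall of 0.21 ± 0.07 (adjusted p = 0.0316) had overlapping groups and was not called under 12 of 25 alternatives. Among these were the fits without any 1 of IL3 replicates 2, 4, 5 and 6 or IL3+SCF replicates 3, 5 and 6 (adjusted p from 0.0502 to 0.0673). Chaf1b, the middle subunit of the CAF-1 histone chaperone, did not pass (0.14 ± 0.08, adjusted p = 0.197). Slbp, which binds the end of histone transcripts, did not pass on its brightest probe set (-0.10 ± 0.06, adjusted p = 0.204 among genes). A dimmer Slbp probe set, with means of 1898 with IL3 and 1013 with SCF, fell by 0.88 ± 0.17 with no overlap (adjusted p = 0.00156 among probe sets).

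Of the genes for entry into S phase, none of the 4 tested passed on its brightest probe set with limma, and 1 of them, E2f1, had an unadjusted p below 0.05. Ccne1 and Ccne2, the cyclins E that drive S phase entry, were at -0.23 ± 0.21 and -0.06 ± 0.15, and Cdk2, their kinase partner, was at -0.06 ± 0.08. A p that misses the threshold does not show that the 2 cultures have equal levels of these transcripts. E2f1, a transcription factor that activates replication genes, ran from 527 to 934 with IL3 (median 664) and from 817 to 1436 with SCF (median 866). The groups overlapped, IL3+SCF replicate 1 was the highest, and the value of E2f1 was 0.42 ± 0.16 (adjusted p = 0.0577). Under 7 of 25 alternatives E2f1 was called risen, among them without IL3 replicate 1 (0.47, adjusted p = 0.047) and without IL3 replicate 2 (0.50, adjusted p = 0.027). A dimmer E2f1 probe set rose by 0.64 ± 0.16 (adjusted p = 0.0101 among probe sets) while another was at 0.09 ± 0.17. A second probe set of Ccne1 fell by 0.91 ± 0.28 (adjusted p = 0.0267 among probe sets), with means of 188 and 99.2. For E2f2, another activating E2F, both probe sets were dim on all IL3+SCF arrays and on 4 or more of the 6 IL3 arrays, with mean signals from 32.2 to 73.5, and it was not tested.

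Taking every kept probe set separately, 67 of 91 fell, 2 rose and 22 did not pass, beside 13.6% of all probe sets that fell and 17.2% that rose. The 2 that rose belonged to Cdc6 and E2f1. Of 31 genes with more than 1 kept probe set, 20 had the same call on each, 18 of these falling on each, and no gene had probe sets called in opposite directions. Some probe set names end in _x_at, which marks probes that can match other transcripts. Among the brightest ones these were those of Rrm2, Mcm4, Mcm5, Mcm6, Pold1, Fen1, Dnmt1 and Ccne1.

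The difference between the cultures could be followed array by array. The mean log2(signal + 16) over the 49 genes lay between 10.05 and 10.29 on the IL3 arrays and between 9.44 and 9.85 on the IL3+SCF arrays. Relative to each gene's mean over the 12 arrays, the median deviation of the replication genes was 0.16 to 0.35 with IL3 and -0.39 to -0.02 with SCF. That of all genes tested stayed between -0.04 and 0.06. IL3+SCF replicate 1 had the deviation nearest 0 (-0.02), and for 27 of the 39 fallen genes it was the highest of its group. IL3 replicate 4 was the lowest of its group for 20 of the 39 and had the smallest IL3 deviation (0.16). Among the IL3 arrays it also had the lowest mean correlation with the others (0.9775), and IL3 replicate 5 had the lowest array weight (0.384). With these 2 IL3 arrays left out, 37 of the replication genes fell and the median fold change was -0.53. Without IL3+SCF replicate 1, 38 fell and the median was -0.58.

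**Figure D3:**
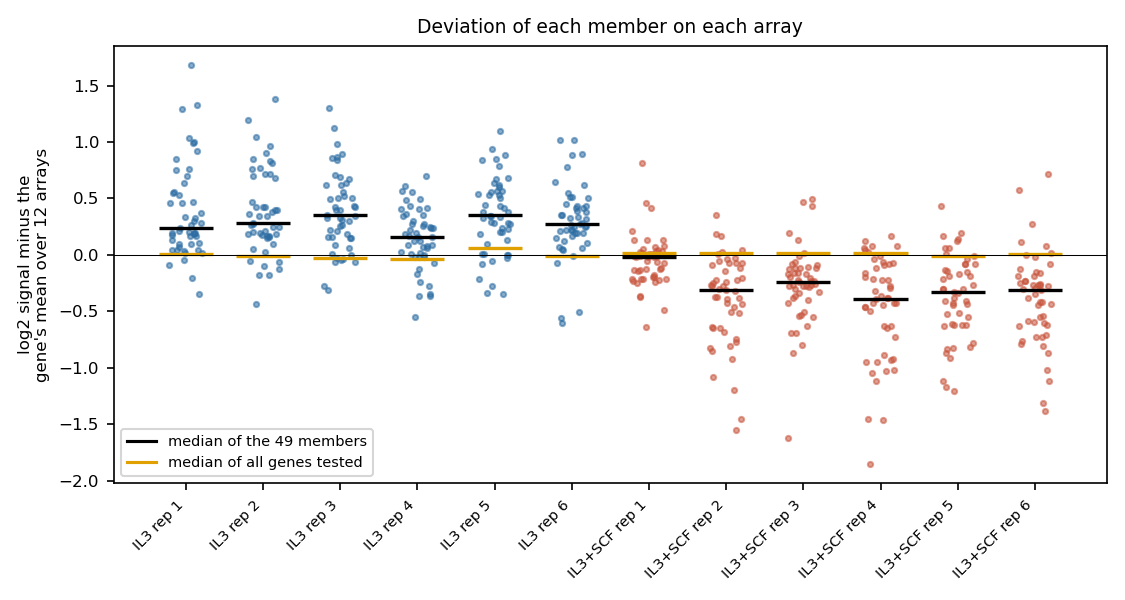
Each point is 1 of the 49 genes on 1 array, plotted as log2(signal + 16) minus that gene's mean over the 12 arrays; black bars are medians of the 49 genes and yellow bars medians of all genes tested. The black bars lie at 0.16 or above on the IL3 arrays and at -0.02 or below on the IL3+SCF arrays, with replicate 1 the highest of the IL3+SCF group.

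Other genes of the same processes were taken from lists that share no gene with the 51. Of 34 tested among 35 other replication fork and origin genes, 19 fell (55.9%), 4 rose and 11 did not pass, with a median of -0.31. Among all genes tested 16.6% fell and 18.9% rose. Clspn, the adaptor that lets the fork activate CHK1, changed by -1.94 ± 0.27 (adjusted p = 0.000148) and was dim on 5 of 6 IL3+SCF arrays. Pclaf, a PCNA-binding factor, changed by -1.28 ± 0.19. Risen genes included Pold4, the smallest subunit of polymerase delta, from 3940 ± 256 to 6756 ± 814 (SD, n = 6), which is 0.77 ± 0.08, and Mcmbp, a partner of MCM proteins, at 0.32 ± 0.06. Pold4 therefore rose where Pold1, the catalytic subunit of the same polymerase, fell on its brightest probe set.

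Of 18 tested among 20 other nucleotide supply genes, 11 fell (61.1%), 1 rose and 6 did not pass, with a median of -0.30. The largest falls were in Dctpp1, a nucleotide pool cleaning enzyme (-0.75 ± 0.08), and Ctps, a CTP synthase (-0.61 ± 0.14). The gene that rose was Tk2, the mitochondrial thymidine kinase (0.29 ± 0.08, adjusted p = 0.0123, with overlap), whereas the cytosolic kinase gene Tk1 fell. Among 24 tested of 32 other recombination and repair genes, 10 fell (41.7%), 3 rose and 11 did not pass, with a median of -0.16. For both lists the shares of all genes were 16.6% fallen and 18.9% risen. Rad54b, a recombination ATPase that was dim on all 6 IL3+SCF arrays, changed by -1.22 ± 0.30. Rad9a, a part of the checkpoint clamp, and Fancb, a Fanconi anaemia core protein, rose by 0.42 ± 0.11 and 0.39 ± 0.09 with overlap.

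Mitosis genes were lower by more than the replication genes at the median. Of 41 tested among 43, 37 fell, none rose and 4 did not pass, with a median of -1.33 and falls of at least 2-fold for 26. All 41 values were negative, so none rose at an unadjusted p below 0.05 either. Cdc25c and Cenpf were dim on all 6 IL3+SCF arrays, so they passed the filter through the IL3 arrays alone. Both are in the counts of 37 and 26. Hmmr, a spindle protein, changed by -2.44 ± 0.20 and was dim on 4 of 6 IL3+SCF arrays. Birc5, the survivin subunit of the chromosomal passenger complex, changed by -2.40 ± 0.22, from 2634 ± 743 to 489 ± 152 (SD, n = 6). No test was made of the difference between the lists. Of 29 tested among 30 G1 cyclin, CDK inhibitor and RB-E2F genes, 6 fell (20.7%), 5 rose and 18 did not pass, with a median of -0.06. The share that fell was near the 16.6% of all genes, and the 5 that rose stand beside 18.9% of all genes. E2f7, a repressive E2F, changed by -1.78 ± 0.22 and was dim on all 6 IL3+SCF arrays, and Rbl2, the p130 pocket protein, fell by 0.51 ± 0.05. Mycn, a MYC family factor, and E2f8, another repressive E2F, rose by 0.63 ± 0.11 and 0.47 ± 0.14, both with overlap. Mycn did not pass with its most variable probe set (0.52, adjusted p = 0.0738), nor E2f8 without IL3 replicates 3 and 6 (0.42, adjusted p = 0.0853).

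**Figure D4:**
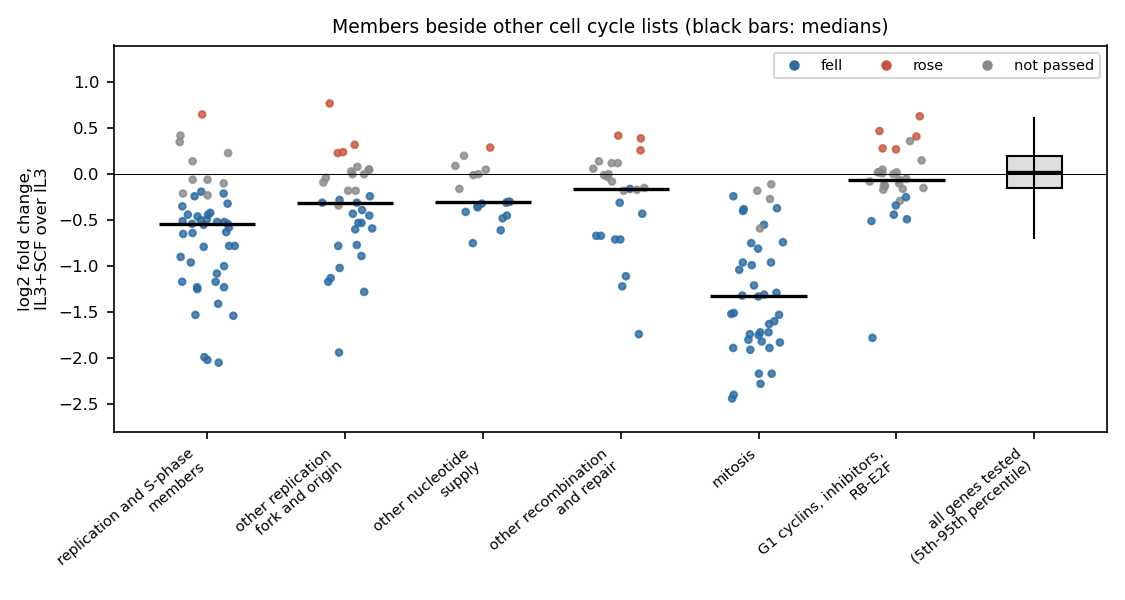
Log2 fold change (IL3+SCF over IL3) of every tested gene in the replication group and in 5 other cell cycle lists, with the median of each as a black bar and the 5th to 95th percentile of all genes tested, -0.70 to 0.62, at the right. The medians run from -1.33 in the mitosis list through -0.54 in the replication group to -0.06 in the G1, CDK inhibitor and RB-E2F list.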

How the data were processed

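For each of 12 arrays the authors deposited linear intensities, 1 per probe set. Per the labels' protocols, targets were amplified from 50 ng of RNA, and the submitters' processing notes name GCOS 1.4. How background was corrected and to what target arrays were scaled is not given in the sources used here, and no detection calls were used. All arrays had a 2% trimmed mean of 1250.01. Their medians differed by at most 0.39 (log2), less than the 0.5 above which quantile normalization was to be applied, so no further normalization was done.

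From these, log2(signal + 16) was computed. Of 45101 probe sets, 34958 had 1 symbol in the annotation given, 932 several and 9211 none. Those above the 40th percentile of the array on 6 or more arrays were kept (27226), and a gene was its brightest kept probe set with 1 symbol. The test of IL3+SCF against IL3 used limma 3.58.1 (R 4.3.3; lmFit, then eBayes; no covariates; two-sided) over all genes or probe sets, with Benjamini-Hochberg adjustment at 0.05. The code was tested on simulated data. Python 3.11.15 with matplotlib 3.10.9 drew the figures. Promoter sequences are RefSeq's (GRCm38.p6).

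The replication genes, lists and rules were chosen with earlier results of these data known. Values by array are given for at most 2 passed genes with the largest change in each role and for the risen gene, with Pcna and E2f1 added after their values were seen. From each list come the 2 largest rises and 2 largest falls that passed, and from each marker list of other cells the brightest gene. A gene that this rule names is not reported here. The other monocyte and basophil markers, Hlf, Hdc, Cdc25c and Cenpf were named after their values were seen. The alternatives tried were median centring or quantile normalization, a pseudocount of 1 or 64, a 60th percentile filter or none, the mean or most variable probe set, array weights, trend with robust eBayes, a block for the replicate number, each array left out, and IL3 replicates 3 and 6 or 4 and 5 left out.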

Additional observations from a re-analysis of the deposited data

Results flagged for a closer look

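Single arrays lay far from the other 5 of their group for 8 of 98 groups of replication genes and for 1 further gene. There the gap to the nearest array, as a share of the group's range, exceeded Dixon's 95% limit for 6 samples. Gap and range were taken on the log2 scale of the fold changes, whereas the signals printed below are linear. Chance flags about 1 in 20 groups. On the low side, Mcm5 was at 600.95 and Gins2 at 160.74 on IL3 replicate 4, Orc6 was at 2637.1 on IL3 replicate 5, and Pola1 was at 312.76 on IL3+SCF replicate 4. On the high side, Gins1 was at 300.45 and E2f1 at 1435.6 on IL3+SCF replicate 1, Mcm7 was at 2740.4 on IL3 replicate 5, Pola2 was at 660.91 on IL3 replicate 3, and Mycn was at 4508.8 on IL3 replicate 3.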

How the results depend on the processing

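Of the 40 replication genes called, 34 kept their call under each alternative that gave them a value (33 fell, and Cdc6 rose), and none reversed. Calls were lost for Dnmt1 under 12 alternatives, Pola2 under 11, Rfc2 under 10, Rpa1 with the most variable probe set (-0.27), and Gins2 (-0.61) and Mcm10 (-0.53) without IL3 replicates 3 and 6, where fewer arrays were fitted and fold changes stayed about as large. The number that fell was 30 of 37 tested (81.1%) with the 60th percentile filter, 36 with median centring, and 36 to 39 with 1 array left out. The number that rose was 2 with the 60th percentile filter, the mean or most variable probe set, trend and robust eBayes or the replicate block, and 1 to 2 with 1 array left out, E2f1 or Tyms being the added gene. At least 2-fold falls numbered 7 of those 37 genes with the 60th percentile filter. Without overlap, 23 genes were higher on all IL3 arrays with median centring, against 31. Among named genes of the lists, calls were lost for Tk2 with median centring (0.26, adjusted p = 0.0815), Mycn with the most variable probe set, and E2f8 and Rad9a (0.34, adjusted p = 0.0512) without IL3 replicates 3 and 6. Of all probe sets of the replication genes, 1 rose without IL3 replicates 3 and 6. The median over the replication genes tested in each alternative lay between -0.63 and -0.50. Ccne1 and Slbp were called fallen with the mean or most variable probe set.

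Among other replication genes 2 rose with median centring or the mean or most variable probe set. Among nucleotide supply genes 6 fell without IL3 replicates 3 and 6. In that list 2 rose with quantile normalization, array weights, the mean or most variable probe set, trend with robust eBayes or the replicate block, 0 with median centring, and 1 to 2 with 1 array left out. Of repair genes 4 fell with the 60th percentile filter and 6 with the most variable probe set, and 1 rose without IL3 replicates 3 and 6. Of mitosis genes 21 fell with the 60th percentile filter, which tested fewer genes. Of G1, CDK inhibitor and RB-E2F genes 3 rose with median centring, under which 1369 of all genes rose and 1409 fell, against 2155 and 1895. Other causes were not tested.

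With the replicate number as a block, 36 replication genes fell and 1579 of all genes. Deviations of same-numbered arrays correlated between -0.241 and 0.31, above 0.1 for replicates 4 and 6 alone, so the numbers were not treated as pairs; whether any samples were paired is not stated in the labels. Dim signals limit Exo1, Tk1, Pole, Ung and E2f2 among the replication genes, and Clspn, Rad54b, Hmmr and E2f7 among the named genes of the lists.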
